A study of Mus musculus with 6 samples.

Results

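The genes Ntsr1, Syt6, Crym, Rprm, Sla and Lmo3, which serve as markers of layer 6 corticothalamic neurons, were followed across 3 stages around birth in mouse cortical cells sorted, per the labels, as corticothalamic projection neurons. They are 6 of the 18193 genes named on the arrays. They were found as every probe set annotated to exactly 1 gene symbol that was one of these names. This gave 12 probe sets of the 34945 with 1 symbol, with 4 each for Syt6 and Sla and 1 each for the others. The brightest probe set by mean stood for each gene, and all 6 genes passed the filter that left out the dimmest 25% of genes. The search by name used no measured value, but the choice of the brightest probe set and the filter did. The 6 names were chosen with earlier results of these data known.

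The data were 6 Affymetrix arrays of C57BL/6 mouse RNA, labelled wild type, with 2 arrays per stage and no control group. Neurons had taken up green fluorescent beads injected into the thalamus and were sorted by fluorescence from dissociated cortex. The E18 group was injected at E17.5 and collected at E18.5, the P3 group was injected at P1 and collected at P3, and the P6 group was injected at P4 and collected at P6. The beads thus had 1 day to travel at E18 and 2 days at P3 and P6, and in any comparison with E18 the time since labelling and the stage cannot be told apart. Whether the paired arrays stem from different animals is not stated, so the p-values cover the spread between these arrays alone, which may be technical. Values are log2 expression units, in which 1 unit is a 2-fold difference, and the number of arrays limits their precision.

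Corticothalamic neurons are glutamatergic neurons, most of them in layer 6, that send axons to the thalamus and so shape the input the cortex receives. Their identity is set before birth by transcription factors such as Tbr1, Tle4, Sox5 and Foxp2, and genes of receptors, secretion and signalling are then switched on as they mature. Ntsr1 encodes the high-affinity receptor of the peptide neurotensin, coupled to the Gq class of G proteins, and its regulatory sequences drive the Cre line most used to reach layer 6 corticothalamic cells. Syt6 encodes a synaptotagmin, a membrane protein of the family that links calcium to vesicle fusion. Crym encodes mu-crystallin, a cytosolic protein that binds thyroid hormone. Rprm encodes reprimo, a target of p53 that acts in arrest before mitosis. Sla encodes the Src-like adaptor, which dampens antigen receptor signalling in lymphocytes. Lmo3 encodes a LIM-only cofactor that binds other transcription regulators and not DNA itself.

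Start-site windows are shown for the 4 genes with an entry in the RefSeq promoter table (build GRCm38.p6), so that the starts of genes that stood higher after E18 can be set side by side. Each window runs from 250 bases before to 50 bases after an annotated start, 5′ to 3′ on the gene's strand. Capitals mark matches to the motifs named after the sequences. The windows are chr2:54085503-54085802 on the minus strand for Rprm, chr2:180499726-180500025 on the plus strand for Ntsr1, chr3:103574995-103575294 on the plus strand for Syt6 (the first of its 3 windows) and chr6:138581919-138582218 on the minus strand for Lmo3.
Rprm: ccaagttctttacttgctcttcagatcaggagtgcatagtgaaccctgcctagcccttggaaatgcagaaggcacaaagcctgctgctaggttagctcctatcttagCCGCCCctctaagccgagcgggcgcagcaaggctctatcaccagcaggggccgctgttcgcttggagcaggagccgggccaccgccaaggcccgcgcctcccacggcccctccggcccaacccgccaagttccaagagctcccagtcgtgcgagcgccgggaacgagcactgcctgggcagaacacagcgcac
Ntsr1: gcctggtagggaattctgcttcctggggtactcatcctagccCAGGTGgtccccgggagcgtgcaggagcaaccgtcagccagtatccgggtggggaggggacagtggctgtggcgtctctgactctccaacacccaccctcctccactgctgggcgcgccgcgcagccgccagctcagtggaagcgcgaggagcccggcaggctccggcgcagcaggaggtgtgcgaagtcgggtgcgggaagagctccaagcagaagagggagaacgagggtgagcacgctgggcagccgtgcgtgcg
Syt6: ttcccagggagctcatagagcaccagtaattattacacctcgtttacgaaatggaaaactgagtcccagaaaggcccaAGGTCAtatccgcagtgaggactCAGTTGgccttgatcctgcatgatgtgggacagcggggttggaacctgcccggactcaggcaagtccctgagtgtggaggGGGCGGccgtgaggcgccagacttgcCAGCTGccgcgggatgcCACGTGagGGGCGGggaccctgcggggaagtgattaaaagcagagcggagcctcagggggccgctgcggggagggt
Lmo3: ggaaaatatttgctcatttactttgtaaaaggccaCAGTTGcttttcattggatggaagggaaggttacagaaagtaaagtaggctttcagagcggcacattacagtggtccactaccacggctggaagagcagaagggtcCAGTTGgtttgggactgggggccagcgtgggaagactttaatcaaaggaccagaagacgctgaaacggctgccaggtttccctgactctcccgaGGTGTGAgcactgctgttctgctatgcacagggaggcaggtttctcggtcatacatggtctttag

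The starts differed in base composition. G and C made up 68.0% of the Ntsr1 window, 63.3% of the Rprm window, 61.0%, 64.3% and 65.7% of the 3 Syt6 windows and 50% of the Lmo3 window, against a median of 52.7% over all 32851 windows in the table. The CpG count was 23 for Ntsr1, 19 for Rprm, 16, 19 and 19 for Syt6 and 7 for Lmo3, against a median of 7. For the search, 8 short motifs were read on both strands. The T-box motif GGTGTGA, the kind of letters that Tbr1 binds, matched 1 gene, Lmo3, beginning 15 bases before its start, and it occurs in 3.98% of all windows. The nuclear receptor motif AGGTCA, read by thyroid hormone receptors among others, matched Syt6 and occurs in 16.3% of windows. The GC box GGGCGG matched Syt6 and Rprm, against 35.7% of windows. The E-box CANNTG matched Ntsr1, Syt6 and Lmo3, against 72.3% of windows. The SOX core ACAATG, the forkhead core GTAAACA, the TATA box TATAAA and the cyclic AMP response element matched 0 of the 4 genes, against 12.6%, 3.65%, 13.6% and 1.79% of windows. No matched letters overlapped those of another motif. A match describes letters only, and no binding was measured.

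Agreement within a stage was closest at E18, and the E18 arrays held signal of other cells. The E18 arrays correlated at 0.998 over all probe sets, the P3 arrays at 0.961 and the P6 arrays at 0.976. Over 2-fold differences between the 2 arrays were seen for 0, 3664 and 1710 probe sets at E18, P3 and P6. P3 replicate 2 read lower than P3 replicate 1 for 68.2% of the 13645 genes tested and carried the highest 18S ribosomal RNA signal, 14.22 against 11.83. Control transcripts added at hybridization averaged 9.59 and 9.25 at E18, 11.72 and 11.59 at P3, then 13.01 and 9.85 at P6, with P6 replicate 2 close to the E18 arrays. Signal from the 3′ end of Actb exceeded that from its 5′ end on every array. This excess was 0.56 and 0.58 for E18, 1.19 and 1.76 for P3, then 1.06 and 0.82 for P6. The Gapdh excess, in the same order, was 1.48 and 1.44, 2.55 and 1.68, then 2.08 and 1.79. Both were thus smallest on the E18 arrays, and their part in the differences from E18 was not tested. Genes of dividing cells averaged 12.22 and 12.30 at E18, 7.17 and 7.10 at P3, then 7.22 and 7.34 at P6, with 8 of 8 tested genes lower at P3 than at E18. Progenitor genes averaged at most 6.87 on every later array, against 10.98 and 10.97 at E18. Within that list Pax6 and Nes, named after their values were seen, did not follow the average. Pax6 read 5.92 and 5.79 at E18, 6.26 and 6.78 at P3, then 6.80 and 6.35 at P6. Nes read 8.70 and 8.67 at E18, 8.525 and 8.98 at P3, then 8.30 and 8.03 at P6. The averages of both lists go against a purely postmitotic population at E18, the stage with which the largest differences below were found. The part of dividing cells and progenitors in those differences was not tested.

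All 6 genes stood higher at P3 than at E18 on every array, and 5 of the 6 were called higher at an adjusted p below 0.05. Of all 13645 genes tested, 15.5% were called higher and 25.7% were called lower. The arrays of the 2 stages did not overlap for 6 of 6 genes, all higher at P3, against 36.4% of all genes. The median difference of the 6 genes was 1.75 log2 units, against -0.13 over all genes tested and 1.74 over 8 genes expressed in most neurons, such as Tubb3, Stmn2 and Syt1. Every adjusted p given here is limma's, adjusted over all 13645 genes within a comparison by the Benjamini-Hochberg method and 2-sided. In bulk RNA, fewer cells of a type and less RNA per cell cannot be told apart. A different normalization moved the split of calls: with quantile normalization 51.6% of the P3 calls were higher in place of 37.6%, and the median of all genes became 0.12 in place of -0.13, while the 6 genes had a median of 2.15.

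**Figure D1:**
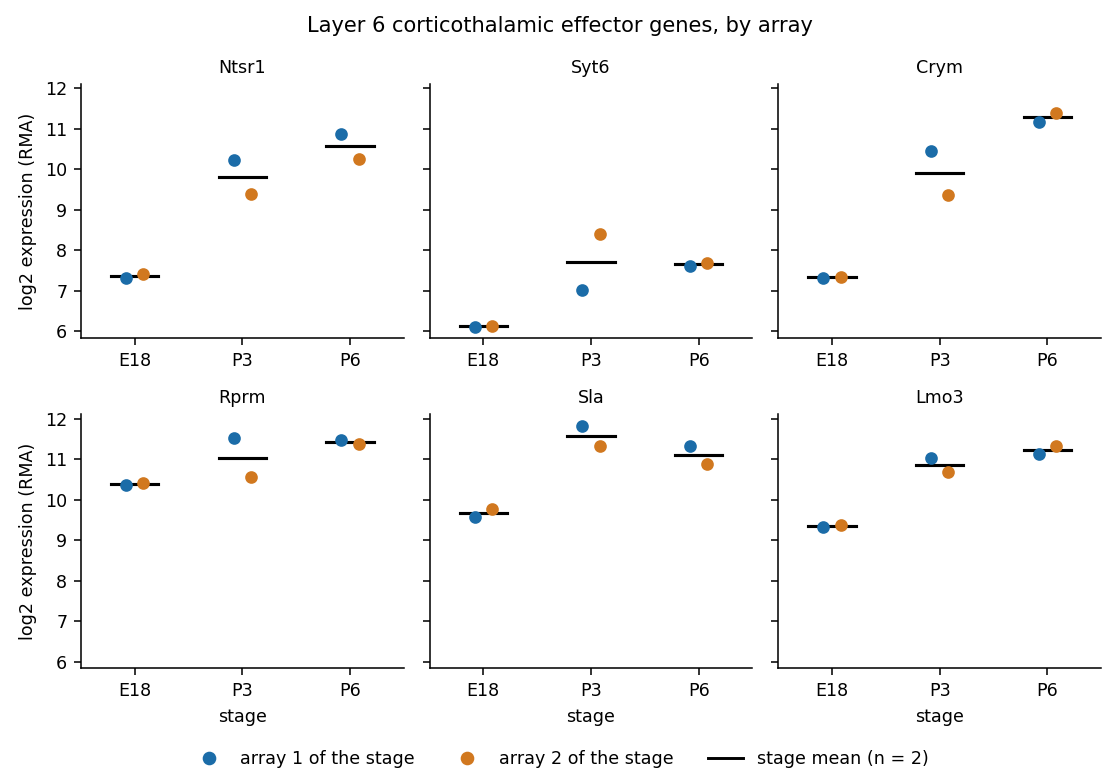
Log2 expression (vertical axis) of each of the 6 genes on the 2 arrays of E18, P3 and P6 (horizontal axis), with points for arrays and a bar for the stage mean. All later arrays lie above the E18 arrays in every panel, and the 2 P3 arrays lie 0.35 to 1.37 apart.

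The receptor gene Ntsr1 (probe set 1420799_at) read 7.32 and 7.41 at E18, 10.24 and 9.39 at P3, then 10.89 and 10.27 at P6. Every later array lay above both E18 arrays, and P3 replicate 2 was the lowest of the later 4. Ntsr1 was 5.47-fold higher at P3 than at E18, a difference of 2.45 ± 0.36 log2 units (SE, adjusted p = 0.00201). At P6 it was 9.28-fold higher than at E18 (3.21 ± 0.36 log2 units, adjusted p = 0.00054). Between P6 and P3 the arrays did not overlap, yet the difference of 0.76 ± 0.36 did not pass the test (adjusted p = 0.287). With the hybridization control signal of each array as a covariate, the P3 difference fell short of the threshold, at 2.0 log2 units (adjusted p = 0.0534).

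Crym, the thyroid hormone binding protein gene (1416776_at), differed most among the 6 genes. It read 7.33 and 7.35 at E18, 10.45 and 9.38 at P3, then 11.18 and 11.40 at P6, so the 3 stages did not overlap. Crym was 5.94-fold higher at P3 than at E18 (2.57 ± 0.36 log2 units, adjusted p = 0.00179) and 15.4-fold higher at P6 than at E18 (3.95 ± 0.36, adjusted p = 0.000236). By the P6 minus E18 difference it ranked 29 among the 13645 genes tested. Between P6 and P3 the difference was 1.38 ± 0.36 log2 units (unadjusted p = 0.00637, adjusted p = 0.139), which is not a call. Without P3 replicate 1 it was 1.91 and passed (adjusted p = 0.0132).

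The cofactor gene Lmo3 (1455754_at) had the smallest gap between the P3 arrays of the 6 genes. It read 9.32 and 9.36 at E18, 11.03 and 10.69 at P3, then 11.12 and 11.33 at P6. All P3 values lay above E18 and all P6 values above P3. Lmo3 was 2.87-fold higher at P3 than at E18 (1.52 ± 0.24 log2 units, adjusted p = 0.00287) and 3.69-fold higher at P6 than at E18 (1.88 ± 0.24, adjusted p = 0.00104). The P6 minus P3 difference was 0.36 ± 0.24 and did not pass (adjusted p = 0.429).

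The adaptor gene Sla (1420819_at) was highest at P3. It read 9.56 and 9.77 at E18, 11.81 and 11.32 at P3, then 11.32 and 10.89 at P6. The E18 arrays lay below all others, and one P3 and one P6 array read the same to 2 decimals. Sla was 3.73-fold higher at P3 than at E18 (1.90 ± 0.28 log2 units, adjusted p = 0.00202) and 2.70-fold higher at P6 than at E18 (1.44 ± 0.28, adjusted p = 0.00671). The P6 minus P3 difference of -0.46 ± 0.28 did not pass (adjusted p = 0.386). The P6 call was kept in 15 of 18 alternatives, and those that lost it included leaving out E18 replicate 1 or P6 replicate 1. The difference ran from 1.17 to 1.65 over the 18.

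The synaptotagmin gene Syt6 (1426106_a_at) read 6.12 and 6.13 at E18, 7.03 and 8.40 at P3, then 7.62 and 7.69 at P6. It was the only one of the 6 genes to read higher on P3 replicate 2 than on P3 replicate 1, by 1.37 log2 units, and the P6 arrays lay between the P3 arrays. Syt6 was 3.02-fold higher at P3 than at E18 (1.59 ± 0.40 log2 units, adjusted p = 0.0180) and 2.89-fold higher at P6 than at E18 (1.53 ± 0.40, adjusted p = 0.0235). The spread is shared by all 3 stages, so the SE at P6 also holds the gap between the P3 arrays. The E18 arrays lay 0.0041 apart and the P6 arrays 0.0733. Between P6 and P3 the difference was -0.06 ± 0.40 (adjusted p = 0.948). P3 replicate 2 decided the size of the P3 difference, which was 0.91 without it (adjusted p = 0.0113) and 2.28 without P3 replicate 1 (adjusted p = 0.00113). The P3 call was kept in 11 of 16 alternatives. It was lost with the hybridization control covariate (adjusted p = 0.147), with the 18S covariate (difference 1.18, adjusted p = 0.101), with P6 left out of the fit (adjusted p = 0.0527) and without P6 replicate 1 (adjusted p = 0.0524) or P6 replicate 2 (adjusted p = 0.0526). The P6 call was kept in 8 of 16. It was lost with quantile normalization (adjusted p = 0.0818), with these covariates (adjusted p = 0.156 and 0.0828), with the E18 arrays averaged (adjusted p = 0.0519) and without any 1 of the 4 E18 and P6 arrays (adjusted p from 0.0516 to 0.129).

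Rprm, the reprimo gene (1422552_at), differed least. It read 10.35 and 10.41 at E18, 11.52 and 10.55 at P3, then 11.47 and 11.38 at P6. P3 replicate 2 stood 0.97 log2 units below P3 replicate 1 and close to the E18 arrays. The P3 minus E18 difference of 0.65 ± 0.33 log2 units did not pass (adjusted p = 0.141). With quantile normalization it was 1.05 and passed (adjusted p = 0.00582), so that 6 of 6 genes were then called at P3. Without P3 replicate 2 it was 1.14 and passed (adjusted p = 0.00534), and without P3 replicate 1 it was 0.17 (adjusted p = 0.329). At P6 Rprm was 2.06-fold higher than at E18 (1.04 ± 0.33, adjusted p = 0.0470), with an SE that also holds the gap between the P3 arrays. The call was kept in 10 of 18 alternatives, over which the difference ran from 0.96 to 1.25. It was lost without any 1 of the 4 E18 and P6 arrays and in the limma fit over all probe sets (adjusted p = 0.0695).

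At P6, 6 of 6 genes were called higher than at E18, against 14.8% of all genes tested, of which 16.9% were called lower, and the arrays of these stages did not overlap for 6 of 6, against 43.4%. Their median difference was 1.71 log2 units, against 0.08 over all genes and 2.01 over the 8 neuronal genes. The calls of Ntsr1, Crym and Lmo3 passed in 18 of 18 alternative settings, that of Sla in 15 of 18, that of Rprm in 10 of 18 and that of Syt6 in 8 of 16. Between P6 and P3, 0 of the 6 genes and 0% of the 13645 genes passed in limma, with or without array weights. Without P3 replicate 1, 4 of the 6 genes and 3922 of all genes passed. At an unadjusted p below 0.05 this comparison held 1 of the 6 genes and 19.8% of all genes. Ntsr1, Crym and Lmo3 had P6 arrays wholly above the P3 arrays, 3 of 6 genes against 30.6% of all genes.

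**Figure D2:**
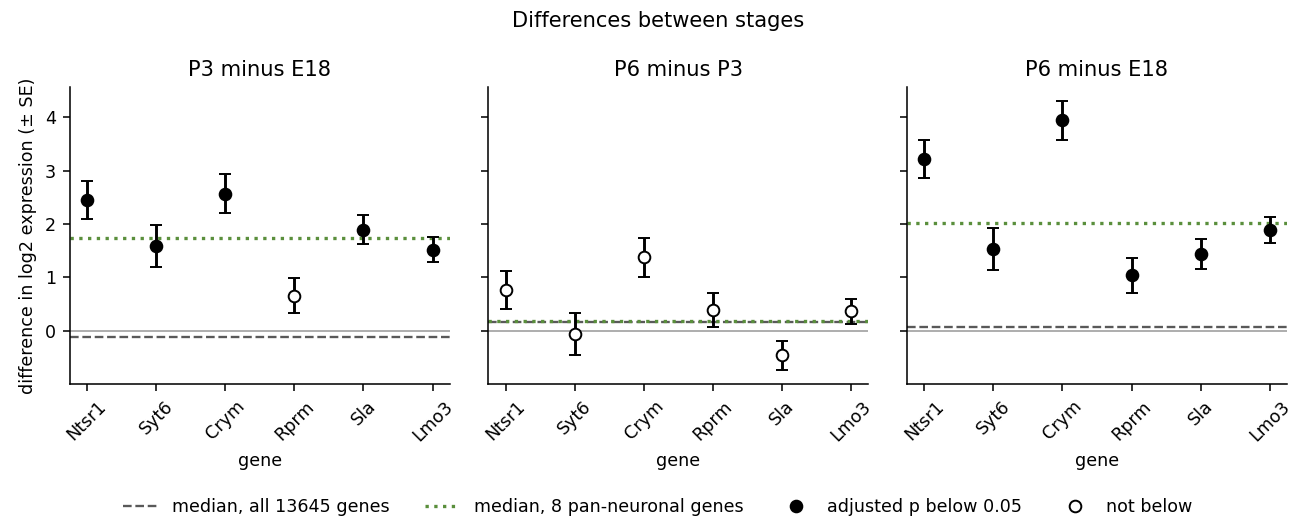
Differences in log2 expression between stages (vertical axis, with SE) for each gene, in 3 panels for P3 minus E18, P6 minus P3 and P6 minus E18. Filled points passed the test, and lines mark the medians of all 13645 genes and of 8 neuronal genes, which at P3 minus E18 stand at -0.13 and 1.74.

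The share of the P6 minus E18 difference already present at P3 was 62.7% for Rprm, 65.1% for Crym, 76.3% for Ntsr1, 80.7% for Lmo3, 104% for Syt6 and 132% for Sla. These shares rest on the P3 arrays. Without P3 replicate 1 the P3 minus E18 difference was 0.17 for Rprm and 2.04 for Crym, and the second interval's change less that of the first turned to 0.70 for Rprm (adjusted p = 0.0771). The second interval's change less that of the first was negative for 6 of 6 genes, from -2.36 for Sla to -0.26 for Rprm. Its median over the 6 genes was -1.42, against 0.35 over all genes tested, of which the share with negative values was not counted. This change passed the test for 1 of the 6, Sla (-2.36 ± 0.48 log2 units, adjusted p = 0.0163), against 5.28% of all genes called in that direction and 16.7% in the other. Ntsr1 (-1.69 ± 0.62, adjusted p = 0.0864) and Lmo3 (-1.16 ± 0.42, adjusted p = 0.0836) came near the threshold without passing it. Leaving out E18 replicate 1 or P6 replicate 2 took the Sla call away. Over 17 alternatives the Sla value ran from -3.09 to -1.86. With quantile normalization 4 of the 6 passed, and 52.0% of all calls were positive in place of 76.0%. The share of all genes called under that setting is not given here, so the 4 is not read as a result about the 6 genes.

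The probe sets of Syt6 and Sla did not all read alike, and they share a gene, so they are not replicates. In a fit over all 34945 probe sets, 8 of the 12 probe sets were called higher at P3 than at E18, against 11.5%, and 6 of 12 at P6 than at E18, against 8.76%. All 12 had positive differences in both. The median over all probe sets was also positive, 0.11 in each, and the share of all probe sets with positive differences was not counted. Syt6 had 3 further probe sets made from 1 sequence record. Of these, 1449767_x_at read 5.84 to 6.21 on all 6 arrays and 1449766_at 4.92 to 5.42, with P3 minus E18 differences of 0.22 ± 0.18 and 0.27 ± 0.17 that did not pass (adjusted p = 0.362 and 0.252). The third, 1420188_at, read 3.60 and 3.50 at E18, 4.24 and 5.04 at P3, then 4.56 and 3.77 at P6, and was called higher at P3 (1.10 ± 0.32, adjusted p = 0.0453). The 3 further probe sets lay at the dim end of the arrays, and all read higher on P3 replicate 2 than on P3 replicate 1, as 1426106_a_at did. Of the 4 Syt6 probe sets, 1426106_a_at and 1420188_at passed at P3, and 1426106_a_at alone passed at P6 (adjusted p = 0.0416).

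For Sla, 1447813_x_at read 7.60 and 7.76 at E18, 10.32 and 9.48 at P3, then 9.91 and 9.23 at P6, and was 4.67-fold higher at P3 (2.22 ± 0.37 log2 units, adjusted p = 0.00617). The probe set 1420818_at read 7.14 and 7.18 at E18, 8.70 and 10.73 at P3, then 10.33 and 8.89 at P6, and was 5.87-fold higher at P3 (2.55 ± 0.71, adjusted p = 0.0380). It ordered the P3 arrays the other way round from the other 3 Sla probe sets, although it was designed from the same transcript record as 1420819_at. The dim 1441761_at differed by 0.87 ± 0.38 at P3, which did not pass (adjusted p = 0.125). In RefSeq, Sla lies within the span of Tg, the thyroglobulin gene, whose own probe set read 5.26 to 6.56 over the 6 arrays.

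**Figure D3:**
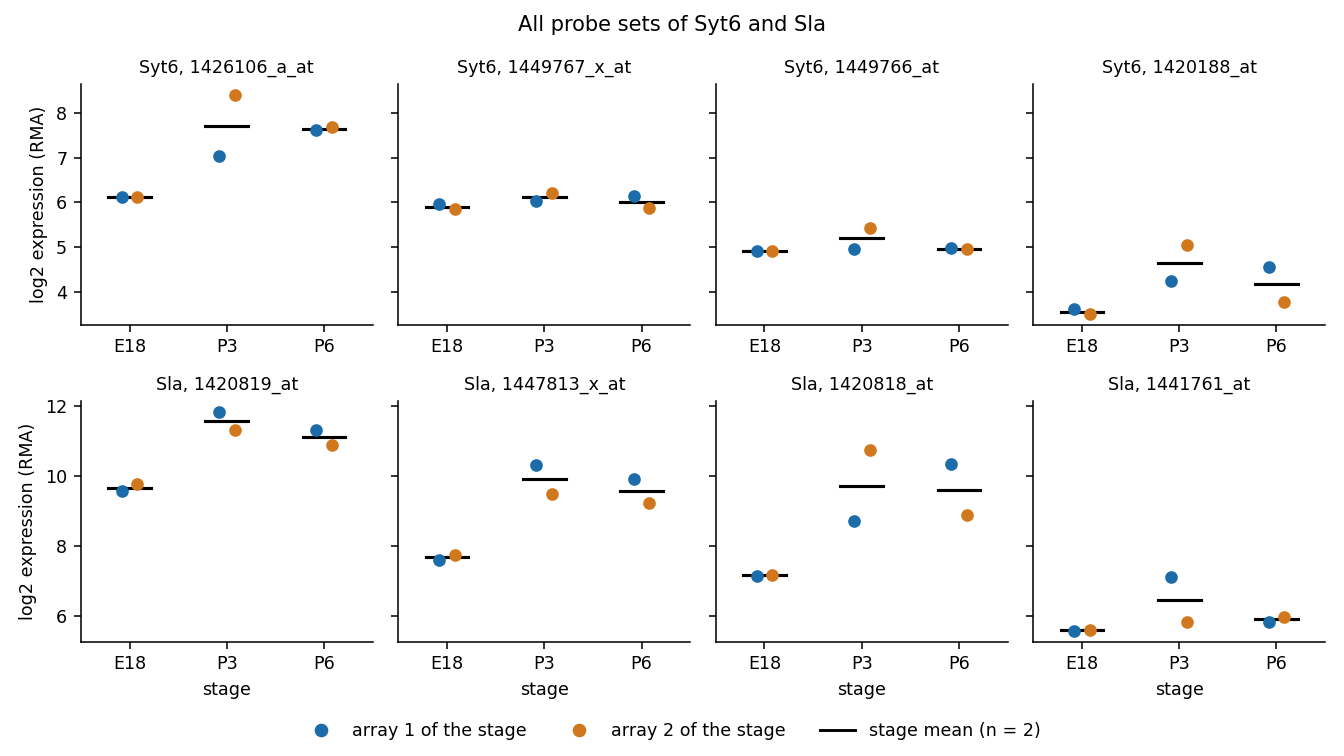
Log2 expression (vertical axis) of the 4 probe sets of Syt6 (upper row) and the 4 of Sla (lower row) on the 2 arrays of each stage, with a bar for the stage mean. For Sla, 1420818_at places P3 replicate 2 at 10.73 and replicate 1 at 8.70, while 1420819_at places them at 11.32 and 11.81.

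After each gene was centred on its own mean, its root mean square deviation over the 6 arrays ran from 0.51 log2 units for Rprm to 1.67 for Crym. The distance between 2 genes, taken on the centred values, holds both the size and the shape of their profiles. This root mean square difference over the 6 arrays was smallest between Sla and Lmo3 (0.39 log2 units) and between Ntsr1 and Crym (0.41). It was largest between Syt6 and Crym (1.22). By this measure over all tested genes, the nearest to Ntsr1 were Prkcb, Slc12a5 and Efna3, with differences of 0.18, 0.18 and 0.18. Prkcb encodes a protein kinase C and Slc12a5 the neuronal potassium-chloride transporter. Crym lay nearest to Mal2 (0.16), Ckmt1 (0.17) and Eno2 (0.18), of which Eno2 encodes the neuronal form of enolase. Lmo3 lay nearest to Atp1b1 (0.08), Tlcd3b (0.09) and Fhl2 (0.09), and Atp1b1 encodes a subunit of the sodium pump. Sla lay nearest to Vldlr (0.13), a reelin receptor gene, then Nkd2 (0.14) and Insyn2a (0.14). Rprm lay nearest to Tstd3 (0.05), Kcp (0.07) and Tnfrsf21 (0.07), and Syt6 to Shisa7 (0.19), Ncam2 (0.21) and Sema7a (0.21). These distances over 6 arrays are descriptions, and all genes share the arrays.

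Among other genes of corticothalamic and layer 6 neurons, 15 of 26 tested were called higher and 2 lower at P3 than at E18 (15.5% and 25.7% of all genes), with a median of 1.02 log2 units against -0.13 over all genes. At P6, 14 were called higher and 1 lower than at E18 (14.8% and 16.9% of all genes), with a median of 1.27 against 0.08. Sulf1, called higher in both and named after its values were seen, read 5.51 and 5.44 at E18. That is below the filter's lowest mean of 5.97, so Sulf1 was tested only because of its later arrays. Hs3st4, a heparan sulfate sulfotransferase gene, was 12.4-fold higher at P3 (3.63 ± 0.30 log2 units, adjusted p = 0.000145), and the transcription factor gene Tshz3 was 7.46-fold higher (2.90 ± 0.26, adjusted p = 0.000208). The kainate receptor gene Grik3 was 7.48-fold higher at P3 (2.90 ± 0.31, adjusted p = 0.000465). Garnl3 was 13.6-fold higher at P6 than at E18 (3.76 ± 0.30, adjusted p = 0.000126). Ccn2, a marker of the subplate beneath layer 6, was lower at P3, by a difference of -3.60 ± 0.36 (adjusted p = 0.00034), while Cplx3, another subplate marker, was 4.56-fold higher at P6 than at E18 (2.19 ± 0.20, adjusted p = 0.000246). The other gene called lower at P3 was Igfbp4 (-3.22 ± 0.68, adjusted p = 0.00932), named here after its values were seen. Over the 18 alternatives, 9 to 16 of these genes were called higher at P3.

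Around the receptor Ntsr1, 3 of 9 tested genes of neurotensin and Gq signalling were called higher and 1 lower at P3 than at E18, with a median of 0.41, against 15.5% and 25.7% of all genes. At P6, 4 were called higher and 1 lower than at E18, with a median of 0.62, against 14.8% and 16.9%. The ligand gene Nts read 7.31 and 7.44 at E18, 9.51 and 7.18 at P3, then 10.71 and 12.05 at P6. The P6 arrays stood above all others, and P3 replicate 2 stood with E18. Nts was 16.1-fold higher at P6 than at E18 (4.01 ± 0.74 log2 units, adjusted p = 0.00559), a call lost without P6 replicate 2 (adjusted p = 0.0650), and was not called at P3 (0.97 ± 0.74, adjusted p = 0.310). Prkcb, which acts downstream of Gq, was 5.83-fold higher at P3 (2.54 ± 0.28, adjusted p = 0.000572), and Plcb1, the phospholipase that Gq activates, was 2.25-fold higher (1.17 ± 0.28, adjusted p = 0.0151). Without E18 replicate 1 or 2 the Plcb1 call was lost (adjusted p = 0.122 and 0.0844). The second neurotensin receptor gene Ntsr2 was 1.77-fold higher at P3 (0.83 ± 0.20, adjusted p = 0.0164), and Sorl1, a sorting receptor gene, was lower (-2.37 ± 0.23, adjusted p = 0.000326). Ntsr2 read 5.87 and 5.88 at E18, below the filter's lowest mean of 5.97, so it was tested only because of its later arrays. The Ntsr2 call was lost without either E18 array or P3 replicate 1 (adjusted p from 0.0501 to 0.104). The 4 genes called higher at P6 were Nts, Prkcb, Plcb1 and Ntsr2, and Sorl1 was again the one called lower. At P6 the Plcb1 call was lost without either E18 array or P6 replicate 1 (adjusted p from 0.120 to 0.221), and its difference was 0.43 with the mean of its probe sets, against 1.01 here. The Ntsr2 call at P6 was lost without either E18 array or P6 replicate 2 (adjusted p from 0.0960 to 0.177) and held in 10 of 17 alternatives.

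Around Syt6, 5 of 8 genes of related synaptotagmins and the release machinery were called higher at P3 than at E18 and 0 lower, against 15.5% and 25.7% of all genes, with a median of 0.92. At P6, 7 of 8 were called higher and 0 lower than at E18, against 14.8% and 16.9% of all genes, with a median of 1.8. Syt3, a relative of Syt6, read 5.88 and 6.02 at E18, 6.92 and 6.86 at P3, then 7.69 and 8.49 at P6, with no overlap between stages. Its E18 average lay below 5.97, the lowest mean that the filter kept, so Syt3 was tested only because of its later arrays. It was 1.92-fold higher at P3 (0.94 ± 0.27 log2 units, adjusted p = 0.0300, and 0.0854 to 0.151 without any 1 of the E18 and P3 arrays) and 4.41-fold higher at P6 than at E18 (2.14 ± 0.27, adjusted p = 0.00101). Syt9, another relative, differed by 1.17 ± 0.25 at P6 (adjusted p = 0.0105, and 0.0519 to 0.113 without either E18 array or P6 replicate 2) and by 0.25 ± 0.25 at P3, which did not pass (adjusted p = 0.431). Syt10 passed in neither comparison, with differences of 0.79 ± 0.35 and 0.86 ± 0.35 (adjusted p = 0.104 and 0.102). The membrane fusion genes Snap25 and Stx1a were 10.5-fold and 6.01-fold higher at P3 (adjusted p = 5.9e-05 and 0.000117). The complexin genes Cplx1 and Cplx2, which clamp and assist fusion, were 4.06-fold and 1.87-fold higher (adjusted p = 0.000352 and 0.0180), the second of these calls being lost without either E18 array (adjusted p = 0.177 and 0.189).

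Around Crym, 4 of 11 tested genes of thyroid hormone transport and action were called higher and 1 lower at P3 than at E18, against 15.5% and 25.7% of all genes, with a median of 0.60. With quantile normalization, 8 were called higher, and 51.6% of the 5660 calls over all genes were then higher. At P6, 5 were called higher and 1 lower than at E18, against 14.8% and 16.9% of all genes, with a median of 0.67. Klf9, a transcription factor gene induced by thyroid hormone, was 7.08-fold higher at P3 (2.82 ± 0.23 log2 units, adjusted p = 0.000151, with a difference of 1.40 for the mean of its probe sets), and Nrgn, the neurogranin gene and another known target, was 3.62-fold higher (1.86 ± 0.27, adjusted p = 0.00215). The amino acid and hormone transporter gene Slc7a5 was 2.21-fold higher (1.14 ± 0.27, adjusted p = 0.0156), which was lost without either E18 array (adjusted p = 0.128 and 0.112). Slco1c1, a thyroxine transporter gene found in brain vessels and astrocytes, was lower at P3 by a difference of -5.44 ± 0.25 (adjusted p = 1.31e-05), and 5 of 9 astrocyte and 3 of 6 vascular marker genes were also lower there. Their part in it was not tested. The receptor gene Thra was 1.58-fold higher at P3 (0.66 ± 0.22, adjusted p = 0.0443), a call kept in 4 of 18 alternatives and lost without any 1 array other than P3 replicate 2 (adjusted p from 0.0543 to 0.219), and 2.23-fold higher at P6 than at E18 (1.16 ± 0.22, adjusted p = 0.00574). The fifth gene called higher at P6 was the coactivator gene Ncoa1 (1.04 ± 0.22, adjusted p = 0.00922), named after its values were seen. Thrb was too dim to be tested. For the deiodinase gene Dio2 the brightest probe set differed by 0.44 ± 0.18 at P3 (adjusted p = 0.0810), but the mean of its probe sets gave -1.21 (adjusted p = 0.00101), so no direction is given.

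Around Rprm, 1 of 8 tested genes was called higher and 4 lower at P3 than at E18, against 15.5% and 25.7% of all genes, with a median of -0.73. The one higher was Rprml, the closest relative of Rprm. Rprml read 5.35 and 5.39 at E18, 9.08 and 8.64 at P3, then 9.89 and 10.99 at P6, with no overlap between stages. It was 11.2-fold higher at P3 (3.49 ± 0.37 log2 units, adjusted p = 0.000489) and 33.7-fold higher at P6 than at E18 (5.07 ± 0.37, adjusted p = 8.79e-05). At E18 Rprml lay below 5.97, the lowest mean that the filter kept, so it was tested only because of its later arrays. Of the genes called lower, 3 drive or guard the entry into mitosis. Cdk1, the mitotic kinase gene, differed by -6.27 ± 0.23, Cdc25c, its activating phosphatase, by -4.57 ± 0.27 and Wee1, its inhibiting kinase, by -3.25 ± 0.27 (adjusted p = 8.05e-06, 3.4e-05 and 0.000151). The fourth was Mdm2, the p53 ligase gene (-1.46 ± 0.47, adjusted p = 0.0436), named after its values were seen. At P6, Rprml and Cdkn1a were called higher than at E18 and Cdk1, Cdc25c and Wee1 lower, with a median of -0.41 for the list. Of all genes, 14.8% were called higher and 16.9% lower in that comparison. Cdkn1a, the gene of the cell-cycle inhibitor p21, was also named after its values were seen (2.27 ± 0.43, adjusted p = 0.00613). Genes of dividing cells in general stood high at E18 alone, as given above.

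Around Sla, 0 of 8 tested genes of Src kinases, Cbl ligases and their like were called higher and 3 lower at P3 than at E18, against 15.5% and 25.7% of all genes, with a median of -0.36. At P6, 0 were called higher and 2 lower than at E18, against 14.8% and 16.9% of all genes, with a median of -0.28. The Src family kinase gene Yes1 differed by -3.29 ± 0.32 at P3 (adjusted p = 0.000314), and Cbl, the ubiquitin ligase gene whose product the Sla adaptor brings to lymphocyte receptors, by -1.24 ± 0.26 (adjusted p = 0.00966). The Cbl call was lost without either E18 array (adjusted p = 0.0868 and 0.110) and with quantile normalization, where the difference was -0.75. Fyn, another Src family kinase gene, differed by -0.76 ± 0.25 (adjusted p = 0.0434), a call kept in 5 of 18 alternatives and lost without any 1 array other than P3 replicate 1 (adjusted p from 0.0529 to 0.285). Yes1 and Cbl were also the genes called lower at P6, where the Cbl call was lost without either E18 array or P6 replicate 2 (adjusted p from 0.0743 to 0.179). The relative Sla2 was too dim to be tested.

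Around Lmo3, 3 of 9 tested genes were called higher and 5 lower at P3 than at E18, against 15.5% and 25.7% of all genes, with a median of -1.13. At P6, 2 were called higher and 3 lower than at E18, against 14.8% and 16.9% of all genes, with a median of -0.25. The other LIM-only genes stood lower at P3 while Lmo3 stood higher. Lmo1 read 10.30 and 10.40 at E18, 8.87 and 8.38 at P3, then 9.09 and 9.93 at P6. Its P3 minus E18 difference was -1.72 ± 0.34 (adjusted p = 0.00733), that of Lmo2 was -1.13 ± 0.18 (adjusted p = 0.00331, and 0.0529 without E18 replicate 1) and that of Lmo4 was -1.13 ± 0.39, which did not pass (adjusted p = 0.0522). None of these 3 was called between P6 and E18, with differences of -0.84 ± 0.34, -0.25 ± 0.18 and 0.13 ± 0.39. The LIM domain binding protein gene Ldb2 was 3.89-fold higher at P3 (1.96 ± 0.27, adjusted p = 0.00147), while its relative Ldb1 was lower (-1.72 ± 0.31, adjusted p = 0.00476). The helix-loop-helix genes Tcf3 and Tcf4 were lower at P3, by differences of -3.11 ± 0.22 and -1.19 ± 0.18 (adjusted p = 7.86e-05 and 0.00253). With the mean of its probe sets Tcf4 differed by -0.56 and was not called (adjusted p = 0.0695), and with the hybridization control covariate Lmo1 differed by -1.15 and was not called (adjusted p = 0.105). The other genes called higher at P3 were Ssbp2 and Ssbp3 (0.66 ± 0.20 and 1.03 ± 0.25, adjusted p = 0.0383 and 0.0163), which encode single-stranded DNA binding proteins of the same complexes and were named after their values were seen. At P6, Ldb2 and Ssbp2 were called higher and Tcf3, Tcf4 and Ldb1 lower, of which the Tcf4 call was lost without any 1 of the E18 and P6 arrays (adjusted p from 0.0759 to 0.296) and the Ldb1 call without E18 replicate 1 or P6 replicate 1 (adjusted p = 0.0506 and 0.0693).

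**Figure D4:**
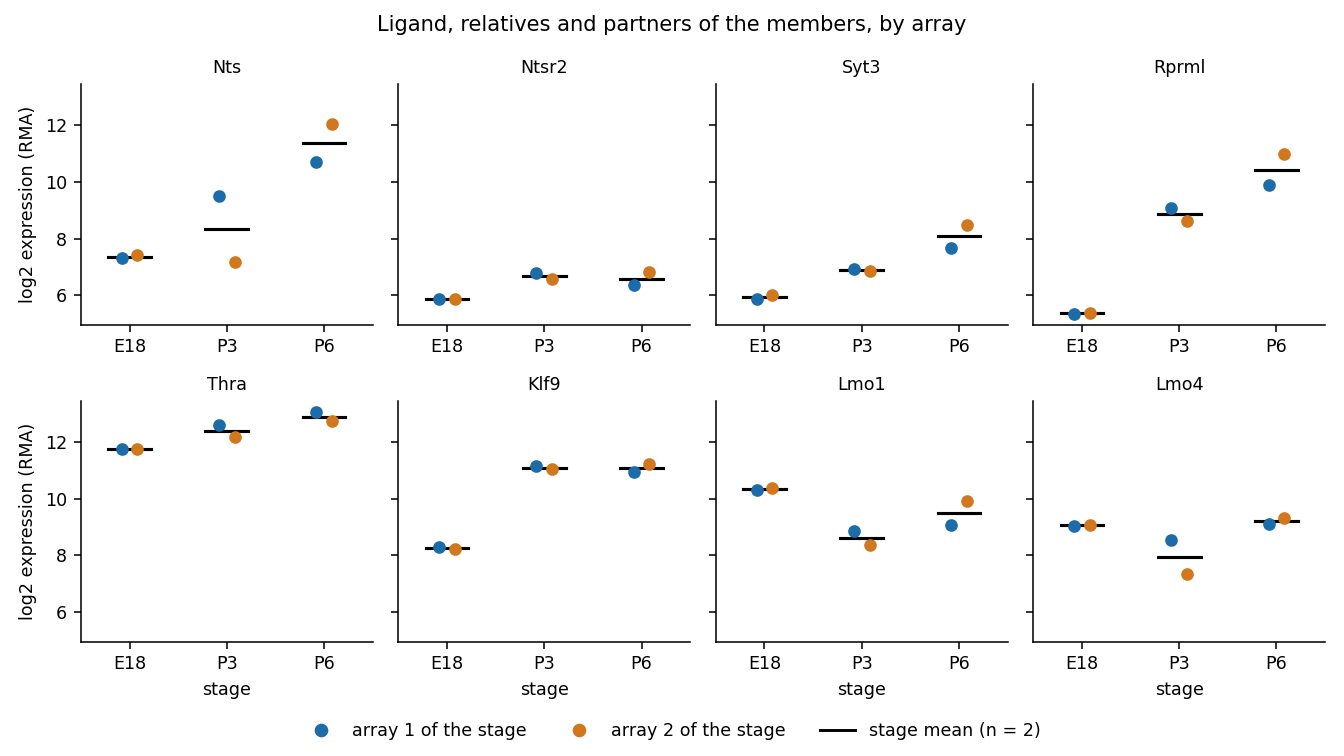
Log2 expression (vertical axis) of 8 ligand, relative or partner genes on the 2 arrays of E18, P3 and P6, with a bar for the stage mean. Rprml reads 9.89 and 10.99 at P6 against 5.35 and 5.39 at E18, Nts is highest at P6, and Lmo1 is lowest at P3.

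The lists of other cell types moved between E18 and P3 as well. Called lower at P3 were 8 of 8 genes of dividing cells (median -5.60 log2 units), 8 of 10 progenitor genes (-5.56), 5 of 9 astrocyte genes (-2.96) and 6 of 8 microglial genes (-2.22). Among the rest, 3 of 7 interneuron, 3 of 6 vascular, 3 of 5 oligodendrocyte and 2 of 7 upper-layer genes were called lower, beside 25.7% of all genes. The calls the other way in these lists were S100b in astrocytes (0.58 ± 0.19), Npy in interneurons (1.51 ± 0.26) and Rorb among upper-layer genes (1.48 ± 0.23), named after their values were seen. S100b read 5.97 and 5.84 at E18, on average below the filter's lowest mean of 5.97, so it was tested only because of its later arrays. Called higher, against 15.5% of all genes, were 7 of 8 neuronal genes (median 1.74), 5 of 7 genes of subcerebral layer 5 neurons (1.42), 2 of 6 general glutamatergic genes (0.58) and 2 of 2 thalamic genes (0.92). The thalamic list held 5 genes, of which Gbx2, Lef1 and Prox1 were too dim to be tested. Of the tested Tcf7l2 and Cacng3, Cacng3 read 5.64 and 5.90 at E18, so it was tested only because of its later arrays. Diaph3 of the subcerebral list (-1.51 ± 0.24) and Slc17a6 of the glutamatergic list (-3.07 ± 0.53) were called lower, and were also named after their values were seen. The 6 layer 6 genes averaged 8.33 and 8.41 at E18, 10.35 and 9.95 at P3, then 10.60 and 10.49 at P6, and the 8 neuronal genes averaged 9.63 and 9.70 at E18, 11.64 and 11.47 at P3, then 11.66 and 11.52 at P6. Both averages thus stood higher on all later arrays, and the median differences at P3 were 1.74 for neuronal and 1.75 for layer 6 genes. Not every neuronal gene did so. Map2, named after its values were seen, read 10.74 and 10.79 at E18 and 10.78 and 10.08 at P6. Microglial genes stood at 9.18 on P6 replicate 2, against 7.35 on P6 replicate 1. The part of these changes in the results for the 6 genes was not tested.

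**Figure D5:**
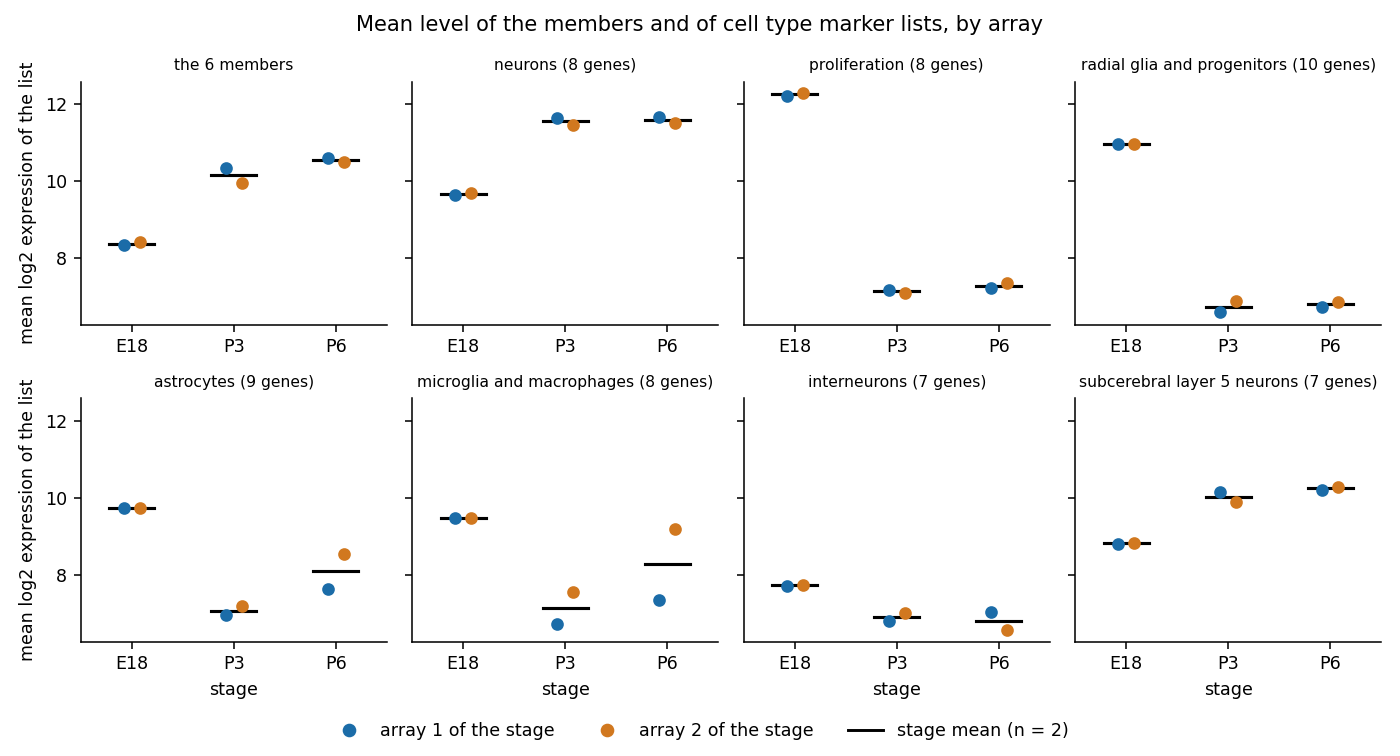
Mean log2 expression (vertical axis) of the 6 layer 6 genes and of 7 cell type marker lists on the 2 arrays of each stage, with a bar for the stage mean. The averages of the dividing-cell and progenitor lists stand high at E18 alone, where those of the 6 layer 6 genes and the neuronal genes are lowest.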

How the data were processed

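Per the submitters' processing notes, the authors used RMA, which adjusts background, equalises arrays and condenses the probes of a set into 1 deposited log2 value. Its version, and whether the 6 arrays were run together, are not given in the sources used here. RNA was amplified before hybridization, per the labels' protocols. Probe sets were named from the supplied platform annotation, in which 34945 of 45101 had 1 symbol. For each of 18193 genes the probe set of highest mean was used. Dropping the dimmest 25% of genes retained 13645, with a mean of 5.97 or more. A gene with an E18 average below this passed only through its later arrays, as Rprml, Ntsr2, Sulf1, Syt3, S100b and Cacng3 did. Stage means were fitted on all 6 arrays with limma 3.58.1 in R 4.3.3, with an intensity trend and 3 residual degrees of freedom, and calls were made below an adjusted p of 0.05. A second fit used all single-symbol probe sets. Errors are SE from the fit, with n = 2 arrays per stage and 1 spread shared by the 3 stages. Fold changes of dim genes may be understated, which was not tested.

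The named partner genes were up to 4 per list with the smallest p, plus close relatives of the 6 genes. Members and lists were chosen with earlier results of these data known. Alternatives covered the choice of probe set, the filter, normalization, trend, weights, covariates, a replicate block and each array left out.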

Additional observations from a re-analysis of the deposited data

How the results depend on the processing

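Across 18 alternatives, no P3 minus E18 or P6 minus E18 difference of the 6 genes changed direction. With the hybridization controls as a covariate, 3 of the 6 genes were called at P3, 3 at P6 and 0 for the second interval minus the first. That last count was also 0 with the E18 arrays averaged, 2 with 18S as a covariate and 4 with quantile normalization. For the 18S and quantile settings the count over all genes is not given here, so no share stands beside these counts. Leaving out 1 array at a time gave 4 to 6 calls at P3 against E18, 0 to 4 at P6 against P3, 3 to 6 at P6 against E18 and 0 to 5 for the second interval minus the first. The lone array of a stage is then assumed to vary like those of the others. The 4 calls at P6 against P3 came without P3 replicate 1, and 3 calls at P6 against E18 came without E18 replicate 1 or P6 replicate 1.

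Over all genes, 5629 were called at P3 and 4320 at P6 against E18, and 3000 for the second interval minus the first. These became 9981 and 7389 of 34945 probe sets when every probe set was tested as its own row. That total is larger than the 13645 genes, so these counts do not show a larger share called. With the E18 arrays averaged they were 2452, 2366 and 1258, and with the hybridization covariate 2263, 2485 and 983. Array weights gave 1805 for the second interval minus the first. Leaving out 1 array gave 2397 to 7871 at P3, 2338 to 6161 at P6, 0 to 3922 at P6 against P3 and 1253 to 6429 for the second interval minus the first.

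Directions that turned were all of differences that had not passed. For P6 minus P3, Syt6 became 0.039 with the 18S covariate, and leaving out 1 array gave -0.74 (without P3 replicate 1) to 0.62 (without P3 replicate 2) for Syt6 and -0.094 (without P3 replicate 2) to 0.87 (without P3 replicate 1) for Rprm. The second interval minus the first ran from -1.23 (without P3 replicate 2) to 0.70 (without P3 replicate 1) for Rprm. At P3, Syt9 ran from -0.0029 (without P3 replicate 1) to 0.51 (without P3 replicate 2), and Cblb became -0.041 with the mean of its probe sets. With the mean of its probe sets, Dio2 became -1.21 at P3 and -1.14 at P6. The cause was not tested. Syt6 fell below the filter, and so had no value, with the mean of its probe sets and with the lowest 50% of genes left out.

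Same-numbered arrays of different stages did not deviate together (correlations of -0.20 for P3 and E18, -0.14 for P6 and P3 and 0.04 for P6 and E18), so the numbers are not taken as pairs. A replicate block gave 5, 0 and 6 calls among the 6 genes in the 3 comparisons between stages and 1 for the second interval minus the first, the same counts as without it, and 5201, 0, 4054 and 2723 calls over all genes. Dim probe sets limit what can be said of Syt6, Thrb and Sla2.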

Other observations

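The Sla probe set 1420819_at held the identical value, 11.3164, on P3 replicate 2 and P6 replicate 1. Between these 2 arrays 29 of the 34945 probe sets with 1 symbol were identical, against 68 between the E18 arrays and 9 to 54 between the other pairs. Nts and the microglial genes both read higher on P6 replicate 2 than on P6 replicate 1, by 12.05 against 10.71 for Nts and 9.18 against 7.35 for the mean of 8 microglial genes.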
